A study of Mus musculus with 4 samples.

Results

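The liver of aging diabetic male mice given astragalus polysaccharide (APS) and metformin was compared with the liver of naturally aging male mice, 1 array each. These are 2 of the 4 arrays of the series; the other 2 hold liver RNA of untreated aging diabetic mice and of aging diabetic mice given metformin alone, and are shown beside the comparison. APS is a mixture of polysaccharides extracted from astragalus root, and metformin is a biguanide that lowers blood glucose. All mice were fasted for 12 h before whole liver was taken, and the natural aging mice received no drug. Strain, age, doses, the way diabetes was brought about and the number of mice behind each RNA are not given in the sources used here, and the 60 d in every sample title is not explained there. The compared groups differ in the diabetic state and in both agents at once, and whether they also differ in strain or age is not given. The parts of these cannot be told apart. With 1 array a group there was no replicate check and no test, and every difference below is a difference between these arrays.

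A level is the log2 of the processed Cy5 signal after each array's 75th percentile was subtracted, so 0 is the 75th percentile of that array. A difference is the level on the APS plus metformin array minus that on the natural aging array, and genes count as higher or lower from 1 log2 (2-fold). Levels and differences are in log2 throughout. Spots well above background numbered 33668 to 37402 of 59305 on the 4 arrays and none was saturated. The error beside a difference combines the errors that the image analysis gave for both spots, with a median of 0.16 log2, and holds none of the spread between animals. Of 22843 genes with a usable probe, 15504 were well above background on at least 1 of both arrays. Where only 1 array was, the difference is a bound and is written "at least". Levels of different genes come from different probes and are not set against each other; sums over a marker list, given for 2 lists, weight each gene by its probe's brightness.

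The labelled tissue and sex were checked against marker genes. All 23 hepatocyte markers with a usable probe were compared, and 22 of them were short of 2-fold, with a median difference of -0.28; albumin (Alb) read 4.23 (natural aging) and 4.12 (APS plus metformin). The Y-linked genes Eif2s3y and Kdm5d were well above background on both arrays. Xist, the RNA that coats the inactive X chromosome, read -4.84 (natural aging, not well above background) and -3.88 (APS plus metformin).

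Mouse liver is a strongly sex-biased organ. The pulsatile growth hormone release of males, acting through the transcription factor STAT5B, keeps male-biased genes such as Elovl3 and Hsd3b5 on and female-biased genes such as Cux2 and the Sult2a sulfotransferases low. Hepatocytes also make the iron hormone hepcidin, convert cholesterol to bile acids through Cyp7a1, and turn glucose into fat through Pklr and Fasn. Inducible chaperones such as Hspa1a are driven by heat shock factor, which binds inverted GAA repeats in promoters.

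Of the 15504 genes compared, 965 (6.22%) were at least 2-fold higher on the APS plus metformin array and 1018 (6.57%) at least 2-fold lower. At 8-fold or more there were 61 higher and 91 lower genes. The median difference over all genes compared was -0.04. List counts below are to be read beside these shares of all genes. Female-biased liver genes, hepcidin, Cyp7a1 and the Cyp4a fatty acid hydroxylases lay at the upper end. Pancreatic acinar enzymes, male-biased genes, inducible heat shock chaperones, neutrophil granule genes and Pklr lay at the lower end. Genes past 2-fold had 553 further probes, of which 85.4% gave the same sign and 45.8% also passed 2-fold in that direction.

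**Figure D1:**
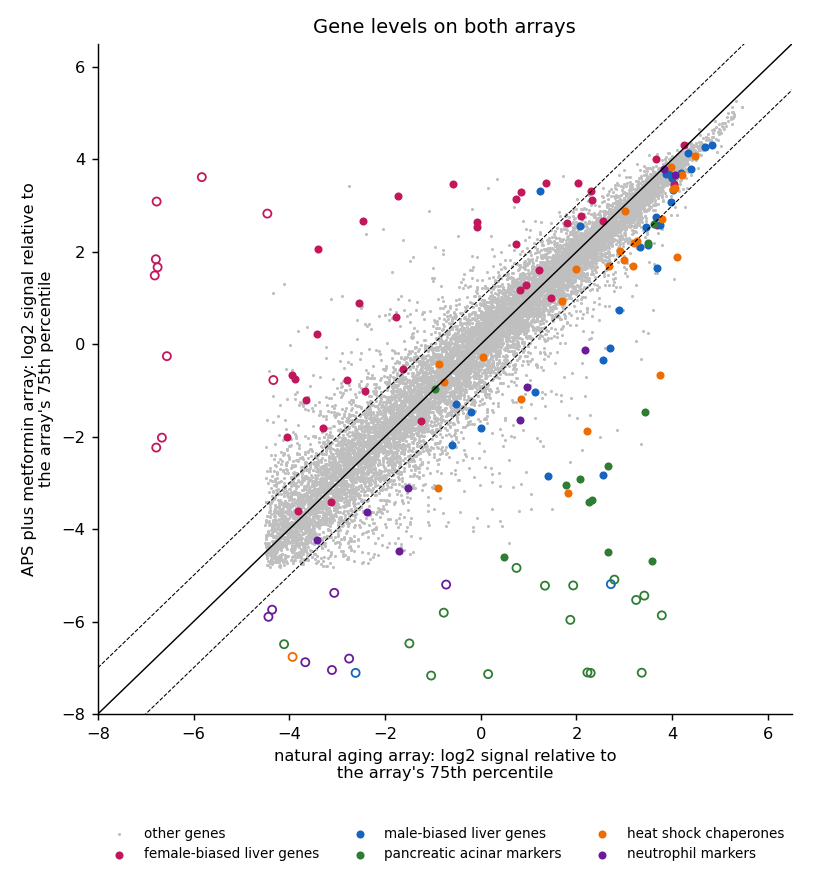
Level of genes on the natural aging array (horizontal) against the APS plus metformin array (vertical), in log2 relative to each array's 75th percentile. Genes well above background on 1 array only are drawn for the coloured lists alone. Filled points were well above background on both arrays and open points on 1, colours mark gene lists, and the dashed lines mark 2-fold. Most female-biased genes lie above and most pancreatic acinar genes below the 2-fold band. Of all genes compared, drawn or not, 13211 were short of 2-fold.

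Female-biased liver genes had the most higher members of the 58 gene lists. Of 48 compared, 33 were at least 2-fold higher and 1 was lower, against 6.22% higher over all genes. The median was 2.20 log2, or 1.45 without members that give only a bound, against -0.04 over all genes. Of the 48 differences 10 are bounds, and 23 of the 33 higher members were well above background on both arrays. Male-biased genes lay on the other side, with 15 of 30 lower, 1 higher and a median of -1.04. Of the 15 lower members, 13 were well above background on both arrays.

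Among female-biased enzymes, the sulfotransferase gene Sult2a2 read -6.77 (natural aging, not well above background), -0.39 (aging diabetic), 2.76 (metformin) and 3.09 (APS plus metformin). The natural aging array was the lowest of the 4 and the APS plus metformin array the highest. The sulfotransferase genes Sult2a2, Sult2a1, Sult2a3, Sult2a4 and Sult2a5, whose products sulfate hydroxysteroids and bile acids, were at least 195, 156, 82.0, 72.7 and 64.3-fold higher. These are close copies of each other, and how far their probes read single genes was not tested. The estrogen sulfotransferase Sult1e1 read -1.74 (natural aging), 2.66 (metformin) and 3.22 (APS plus metformin), with the aging diabetic spot left out as an outlier, a difference of 4.96 (error 0.17), and Sult3a1 was at least 19.2-fold higher.

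Cyp17a1, a steroid hydroxylase, read -3.41 (natural aging), 1.85 (aging diabetic), 0.81 (metformin) and 2.06 (APS plus metformin). Its difference was 5.47 (error 0.21), or 44.2-fold, and the natural aging array was again the lowest of the 4. Cux2, a transcription factor of female liver chosen after its values were seen, was 8.83-fold higher. The organic anion transporters Slc22a26 and Slc22a27 were 12.5-fold and 9.68-fold higher, and Slco1a4 was 6.10-fold higher. Over the whole organic anion transporter list, 6 of 22 were higher and 4 lower, with a median of -0.04. Further enzymes of the list past 2-fold were the aldo-keto reductases Akr1b7 (3.44 log2) and Akr1c18 (2.43), the P450s Cyp2b13 (2.46) and Cyp3a44 (2.01), and the glutathione transferase Gstt3 (2.13).

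Among male-biased genes, Hsd3b5, a steroid dehydrogenase, read 2.72 (natural aging), -5.12 (aging diabetic, not well above background), -3.47 (metformin) and -5.19 (APS plus metformin, not well above background). The natural aging array was the highest of the 4, and the APS plus metformin array was at least 189-fold lower. Slco1a1, an organic anion transporter, read 2.55 (natural aging), -2.32 (aging diabetic), -1.71 (metformin) and -2.84 (APS plus metformin), a 41.9-fold lower level (error 0.18 log2), and its other probe differed by -7.87. The fatty acid elongase Elovl3 read 1.41 (natural aging), -1.78 (aging diabetic), -0.77 (metformin) and -2.84 (APS plus metformin) and was 19.1-fold lower. In both genes all 3 diabetic arrays lay below the natural aging array and the APS plus metformin array was the lowest. The complement component C6 (-2.91), the trefoil peptide Tff3 (-2.77) and the growth factor receptor Egfr (-1.35, with other probes at -2.56 and -2.12) were lower too. Etnppl, a phospholyase of phosphoethanolamine, was the 1 member past 2-fold the other way, at 2.09.

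The growth hormone axis itself had 6 of 20 members lower and 1 higher, with a median of -0.40. The STAT5 target Cish, a feedback inhibitor of cytokine receptors, read 1.65 (natural aging), -2.07 (aging diabetic), -0.65 (metformin) and 0.02 (APS plus metformin), a difference of -1.63. Igfals, which carries IGF1 in blood, differed by -2.16, and the cytokine signalling inhibitor Socs3 by -2.04. The member counted as higher was the hormone gene Gh, not well above background on natural aging, with a bound of 2.72 (1.69 under normexp background correction). Socs2 was short of 2-fold with outlier spots kept (-0.52, against -1.13). The hormone gene Igf1 (-0.31) and the binding protein Igfbp1 (-0.40) were short of 2-fold.

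**Figure D2:**
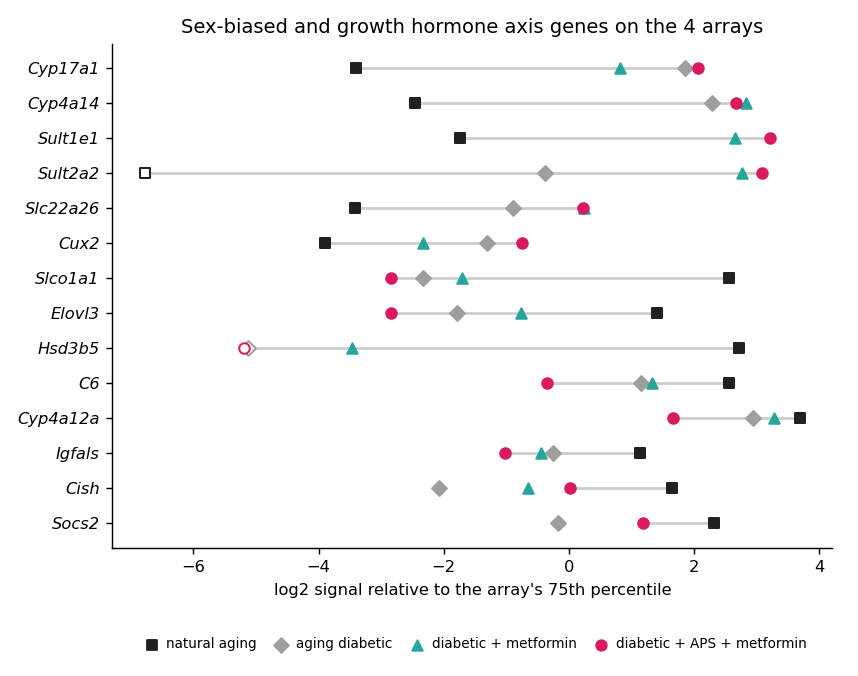
Levels of sex-biased and growth hormone axis genes on the 4 arrays, in log2 relative to each array's 75th percentile, 1 row a gene. Open markers were not well above background, and grey lines join the 2 compared arrays. The natural aging array is lowest for Cyp17a1 and Cyp4a14 and highest for Slco1a1 and Elovl3.

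The same sex-biased lists on the other diabetic arrays used the same natural aging array, so the comparisons are not independent. Untreated aging diabetic against natural aging had 25 of 42 female-biased members higher and 3 lower (median 1.23), and 11 of 27 male-biased members lower (median -0.75); the shares over all genes were 8.07% higher and 6.14% lower. Metformin alone against natural aging had 23 of 40 higher (median 1.57) and 14 of 28 lower (median -0.99), against 12.8% and 4.74% of all genes. Set against the other diabetic arrays, the APS plus metformin array had 16 of 44 female-biased members higher and none lower than untreated aging diabetic, where 4.49% of all genes were higher and 6.78% lower. Against metformin alone it had 7 of 40 higher and 8 lower, where the shares of all genes were 2.41% and 12.2%.

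STAT5 binds TTCNNNGAA, and this motif was searched on both strands of the RefSeq promoters (250 bases before to 50 after each gene start, build GRCm38.p6). It was found in 4 of 41 matched female-biased genes and 5 of 27 male-biased genes, against 9.55% of 27025 genes. The promoters of Sult3a1 and Slc22a26 are shown because they had the largest differences of the 4 female-biased genes that hold the motif; capitals mark the motif, and the sequences run 5′ to 3′ on the gene's strand.
Sult3a1 (chr10:33857472-33857771, plus strand): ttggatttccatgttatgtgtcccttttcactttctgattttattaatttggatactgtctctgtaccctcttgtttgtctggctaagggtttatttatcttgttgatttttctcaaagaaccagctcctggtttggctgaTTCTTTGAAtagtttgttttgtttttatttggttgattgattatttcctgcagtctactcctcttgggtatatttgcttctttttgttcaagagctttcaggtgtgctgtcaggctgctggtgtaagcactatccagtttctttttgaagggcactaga
Slc22a26 (chr19:7802618-7802917, minus strand): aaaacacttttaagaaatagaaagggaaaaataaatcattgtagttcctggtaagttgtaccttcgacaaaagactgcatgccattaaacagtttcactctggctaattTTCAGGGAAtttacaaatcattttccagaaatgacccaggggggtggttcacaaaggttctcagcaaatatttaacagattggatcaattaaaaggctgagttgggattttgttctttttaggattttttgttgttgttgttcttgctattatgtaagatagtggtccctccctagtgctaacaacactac
Each holds 1 match, and a match describes only the letters in this window.

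Iron and bile acid genes included the largest positive difference of any gene that both arrays measured above background. Hamp, which encodes hepcidin, the hormone that blocks iron export, read -2.75 (natural aging), 1.60 (aging diabetic), 2.97 (metformin) and 3.43 (APS plus metformin). The difference was 6.17 (error 0.19), or 72.2-fold, and the levels of all 3 diabetic arrays lay above the natural aging array. Of 29 iron genes compared, 6 were higher and 2 lower, with a median of -0.11. Id1 and Atoh8, both induced by BMP signalling upstream of hepcidin, were higher by 2.74 and 2.07, and the transferrin receptor Tfrc was lower (-1.48; other probe -1.28).

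Bile acid genes had 6 of 30 higher and 4 lower. Cyp7a1, which catalyses the first and limiting step from cholesterol to bile acids, read -1.09 (natural aging), 2.50 (aging diabetic), 1.78 (metformin) and 2.89 (APS plus metformin), a 15.7-fold higher level (error 0.17 log2). Abcc4, an efflux pump of bile acids at the blood side, was 6.82-fold higher. Slc10a2, a sodium-dependent bile acid transporter, read 2.85 (natural aging), -0.16 (aging diabetic), 0.72 (metformin) and -1.84 (APS plus metformin). This was a 25.8-fold lower level, and the gene's other probe gave a difference of -4.25. Slc51a, a subunit of the organic solute transporter, was at least 5.12-fold lower. Members lay on both sides, and the median of the list was -0.11. Of 27 cholesterol synthesis genes, 2 were higher, near the 6.22% of all genes, and none was lower (median 0.29). Squalene epoxidase Sqle (1.33) was 1 of the 2.

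Genes of glucose use and fat synthesis past 2-fold were mostly lower. Of 40 glycolysis and glucose uptake genes, 7 were lower and 2 higher (median -0.32), and of 33 lipogenesis genes 7 were lower and 2 higher (median -0.47). Pklr, the liver pyruvate kinase, read 0.69 (natural aging), -0.56 (aging diabetic), -0.55 (metformin) and -2.00 (APS plus metformin), a difference of -2.68. The natural aging array was the highest of the 4 and the APS plus metformin array the lowest. Hk2, a hexokinase, differed by -1.70, and Pfkfb3, which makes the activator of phosphofructokinase, by -1.57.

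Among lipogenic genes, the fatty acid binding protein Fabp5 differed by -3.23, the lipid droplet lipase Pnpla3 by -3.15 (other probe -1.17), the elongase Elovl6 by -1.77 and fatty acid synthase Fasn by -1.29. Mogat1, an acyltransferase of triglyceride synthesis, went the other way at 3.32 (other probe 2.93). Srebf1, the lipogenic transcription factor, was short of 2-fold at -0.69. The gluconeogenic genes G6pc (-0.56) and Pck1 (-0.18) were short of 2-fold, as was the insulin receptor substrate Irs2 (-0.69).

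Fatty acid oxidation genes had 10 of 51 higher and 2 lower, with a median of 0.01. Cyp4a14 and Cyp4a10, hydroxylases induced by PPAR alpha that are also on the female-biased list, were 35.0-fold and 16.7-fold higher. Cyp4a14 read -2.45 (natural aging), 2.29 (aging diabetic), 2.84 (metformin) and 2.68 (APS plus metformin), and all 3 diabetic arrays lay above the natural aging array. The coactivators Ppargc1a and Ppargc1b were higher by 1.54 and 2.15. Fgf21, a fasting hormone, was lower (-2.47), Pdk4, which restrains pyruvate oxidation, was lower (-1.43), and Cpt1a, which admits fatty acids to mitochondria, differed by -0.08.

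**Figure D3:**
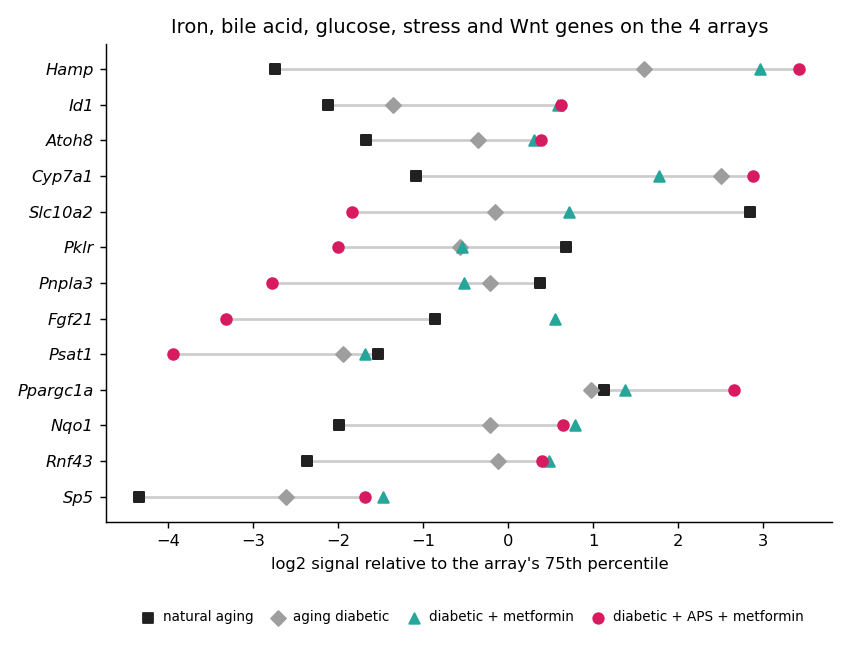
Levels of iron, bile acid, glucose, lipid, stress and Wnt genes on the 4 arrays, in log2 relative to each array's 75th percentile, 1 row a gene. Grey lines join the 2 compared arrays, a missing marker is an outlier spot left out, and levels of different genes are not comparable. Hamp and Cyp7a1 are lowest, and Slc10a2 and Pklr highest, on the natural aging array.

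Genes of oxidative stress defence past 2-fold were all higher. Of 49 NRF2 and antioxidant genes, 9 were higher and none lower (median -0.03). Nqo1, a quinone reductase, was higher by 2.64, the glutathione transferase Gsta2 by 3.23, and Mgst2 was at least 43.8-fold higher. Nfe2l2, the gene of NRF2 itself, had 1 usable probe, which is annotated to a noncoding transcript of the gene. That probe differed by 2.43, but by 0.36 with outlier spots kept. Cyp1a1, the classical target of the aryl hydrocarbon receptor, was higher by 3.52. Slc22a7, a transporter of organic anions, was 8.97-fold lower.

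Heat shock chaperones past 2-fold were all lower. Of 26 compared, 11 were lower and none was higher (median -0.90). Hspa1a, an inducible HSP70, read 1.83 (natural aging), 1.79 (aging diabetic), -1.23 (metformin) and -3.22 (APS plus metformin), a 33.2-fold lower level (error 0.19 log2). Hspa1b, its near-identical copy, read 3.75 (natural aging), 3.19 (aging diabetic), 0.45 (metformin) and -0.66 (APS plus metformin) and was 21.2-fold lower; the probe of each may read both copies. In both genes the APS plus metformin array was the lowest, the metformin array next, and the natural aging array the highest.

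Hsph1, an HSP70 exchange factor, differed by -4.09 (other probe -1.93), Dnajb1, an HSP40 cochaperone, by -2.21, and Hspa4l, a further exchange factor, by -2.02 (other probe -2.13). Chordc1, an HSP90 cochaperone, read -0.89 (natural aging), -0.96 (aging diabetic), -3.22 (metformin) and -3.11 (APS plus metformin) and differed by -2.22; with outlier spots kept Chordc1 was at -1.43 and Hspa4l at -1.22. Untreated aging diabetic against natural aging had 0 of 25 members past 2-fold in either direction (median -0.31). Over all genes 8.07% were higher and 6.14% lower in that pair. Metformin alone against natural aging had 11 of 23 lower (median -0.95), against 4.74% of all genes.

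The heat shock motif GAANNTTC, searched the same way, was found in 12 of 22 members with a RefSeq promoter (54.5%), against 9.04% of 27025 genes, and in 6 of 10 members past 2-fold. The promoters of Hspa1a and Chordc1 are shown, the first for its difference and the second because it holds more than 1 match, with the motif in capitals and 5′ to 3′ on the gene's strand.
Hspa1a (chr17:34972107-34972406, minus strand): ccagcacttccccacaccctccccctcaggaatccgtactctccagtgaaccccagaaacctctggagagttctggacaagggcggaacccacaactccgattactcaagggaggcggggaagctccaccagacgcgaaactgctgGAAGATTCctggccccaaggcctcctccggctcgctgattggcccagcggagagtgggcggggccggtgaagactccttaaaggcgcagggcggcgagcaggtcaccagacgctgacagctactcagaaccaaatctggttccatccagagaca
Chordc1 (chr9:18292017-18292316, plus strand): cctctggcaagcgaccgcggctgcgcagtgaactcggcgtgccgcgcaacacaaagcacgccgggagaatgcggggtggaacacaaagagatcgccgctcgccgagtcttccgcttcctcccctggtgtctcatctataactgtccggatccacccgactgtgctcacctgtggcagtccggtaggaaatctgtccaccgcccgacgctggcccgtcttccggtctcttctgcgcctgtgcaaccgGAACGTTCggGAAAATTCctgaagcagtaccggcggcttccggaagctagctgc
Hspa1a holds 1 match and Chordc1 2.

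Endoplasmic reticulum folding and degradation genes had 6 of 37 lower and none higher, with a median of -0.53. Derl3, a component of endoplasmic reticulum degradation, differed by -2.69, and the folding factors Creld2 and Sdf2l1 by -2.11 and -1.66. Of the ATF4 amino acid response, 8 of 33 were lower and 3 higher (median -0.14). Chac1, which degrades glutathione, differed by -2.89, the serine synthesis enzyme Psph by -2.45, and asparagine synthetase Asns by -1.81. Psat1, also of serine synthesis, differed by -2.41 with its other probe at -0.15 (-1.28 over both). Trib3, a pseudokinase of the same response, was higher by 2.75.

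No other of the 58 lists lay as far from 0 as the pancreatic acinar genes, with 26 of 28 lower, none higher and a median of -5.62 (-5.05 without bounds). Chymotrypsinogen Ctrb1 read 3.58 (natural aging), -0.06 (aging diabetic), 1.72 (metformin) and -4.69 (APS plus metformin), a 308-fold lower level. Carboxypeptidase Cpa1 read 2.79 (natural aging), -2.25 (aging diabetic), -0.25 (metformin) and -5.09 (APS plus metformin, not well above background) and was at least 199-fold lower; the trypsinogens Prss2 and Try5 were at least 394-fold and 306-fold lower. The elastase Cela3a was 142-fold lower. The summed linear level of the 28 members measured on all 4 arrays, in units of each array's 75th percentile, was 152 on natural aging, 19.9 on aging diabetic, 44.3 on metformin and 12.6 on APS plus metformin, and 27, 24, 27 and 12 of them were well above background. The amylase Amy2a5 and the elastase Cela1 made up most of the sum on APS plus metformin, and without both genes, picked after their values were seen, the sums on natural aging and APS plus metformin were 128 and 1.84. The median level of the 28 members was 2.24 on natural aging, -2.16 on aging diabetic, -0.22 on metformin and -5.22 on APS plus metformin. Liver does not normally make these enzymes. Acinar cells also express many endoplasmic reticulum genes strongly, and the part of acinar RNA in the lower endoplasmic reticulum levels was not tested. Untreated aging diabetic against natural aging had 1 of 33 endoplasmic reticulum genes lower and 1 higher, Derl3 at 3.23 (median -0.22). Over all genes 6.14% were lower and 8.07% higher in that pair. The part of acinar RNA in those levels was not tested either. The kallikreins Klk1 (-4.90) and Klk1b5 (-5.04) were lower as well.

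**Figure D4:**
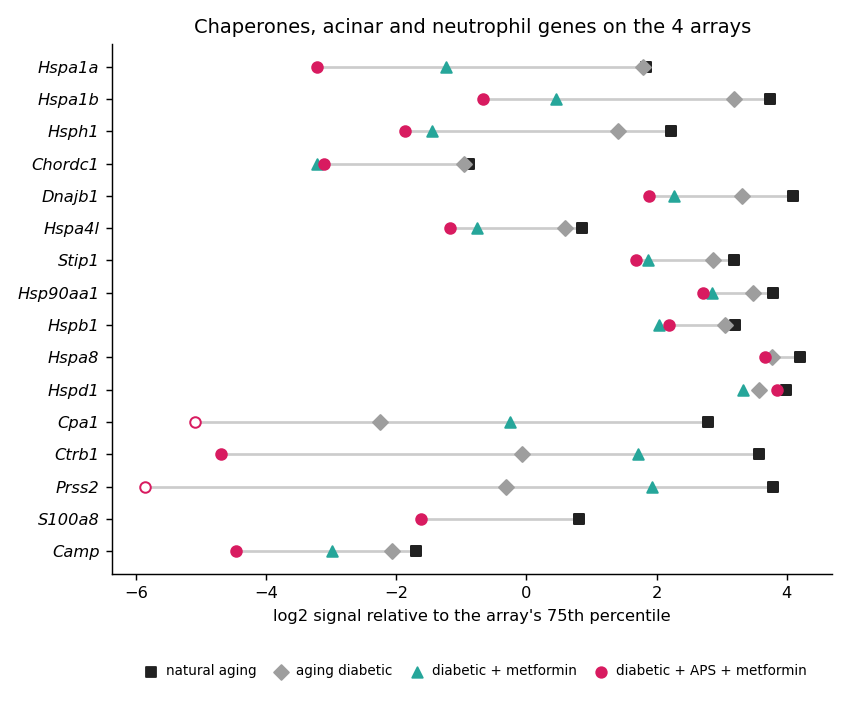
Levels of chaperone, pancreatic acinar and neutrophil genes on the 4 arrays, in log2 relative to each array's 75th percentile, 1 row a gene. Open markers were not well above background, a missing marker is an outlier spot left out, and grey lines join the 2 compared arrays. From Hspa1a (-3.22 on APS plus metformin) to Hspa4l the metformin and APS plus metformin arrays are the lowest, and Cpa1, Ctrb1 and Prss2 are highest on natural aging; Stip1, Hsp90aa1, Hspb1, Hspa8 and Hspd1 were chosen after their values were seen.

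Markers of blood and immune cells were lower more often than higher. In bulk tissue, fewer cells of a type and less RNA per cell cannot be told apart. Neutrophil markers had 11 of 16 lower and none higher (median -1.66, or -1.58 without bounds). Of the 16 differences 7 are bounds, and 6 of the 11 lower members were well above background on both arrays. Among the 11 were the granule genes S100a8 (-2.44), S100a9 (-2.29) and Camp (-2.77) and the protease Prtn3, at least 17.4-fold lower. Of 17 neutrophil markers measured on all 4 arrays, 15 were well above background on natural aging and 8 on APS plus metformin, and their median level was -2.75 and -4.79. Their summed linear level was 39.4 and 28.5, most of it from Csf3r and Lcn2, which were short of 2-fold; without both genes, picked after their values were seen, it was 8.61 and 1.93. Resident Kupffer cell markers had 5 of 16 lower and 1 higher (median -0.72), led by the scavenger receptors Marco (-2.66) and Cd163 (-2.48). T and NK cell markers had 5 of 22 lower and 1 higher (median -0.51), the NK receptor Klrk1 (-2.40) among the lower. Recruited monocyte and lipid-associated macrophage markers had 4 of 14 lower and none higher (median -0.14). The chemokine receptor Ccr2 (-1.32) and the hyaluronan receptor Cd44 (-1.24) were the 2 lower members well above background on both arrays. Dendritic cell markers had 3 of 8 lower and none higher (median -0.41): the transcription factors Irf8 (-1.09) and Batf3 (-2.05, or -1.32 under normexp background correction) and the lectin Cd209a, a bound on its main probe and -0.83 on the other. Sinusoidal endothelial markers were near the middle, with a median of 0.01 and 1 of 24 past 2-fold each way. Red cell markers had 5 of 10 lower, 3 of them bounds, and the median without bounds was -0.15.

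Among signalling genes, cytokines and chemokines had 8 of 37 lower and none higher (median -0.35), with the neutrophil chemoattractant Cxcl1 at -3.10. Immediate-early genes had 10 of 34 lower and 1 higher (median -0.39). Egr1, a zinc finger factor induced within minutes of a stimulus, read 0.89 (natural aging), -2.73 (aging diabetic), 0.15 (metformin) and -1.85 (APS plus metformin), a difference of -2.74, with low levels on both the untreated diabetic and the APS plus metformin array. Atf3 and Nfil3 differed by -2.11 and -2.52. Cell cycle genes had 12 of 58 lower and 2 higher (median -0.30), with the proliferation marker Mki67 at -2.44. Metformin alone against natural aging had 26 of 59 higher and 4 lower, where 12.8% of all genes were higher and 4.74% lower.

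Fetal liver and pericentral genes past 2-fold were mostly higher. Of 32 oncofetal and imprinted genes, 13 were higher and 2 lower (median 0.46). H19, an imprinted noncoding RNA of fetal liver, read -4.33 (natural aging), 0.39 (aging diabetic), 1.98 (metformin) and 1.11 (APS plus metformin), a 43.5-fold higher level, and its neighbour Igf2, a fetal growth factor, was at least 12.2-fold higher. Alpha-fetoprotein Afp was higher by 2.30 and the glypican Gpc3 by 2.64. Pericentral Wnt-dependent genes had 8 of 33 higher and none lower (median 0.27), among them Rnf43, a Wnt feedback inhibitor (2.76), Tbx3 (1.82) and Axin2, at least 4.60-fold higher. Wnt9b, a Wnt ligand of central vein endothelium, was higher by 2.48. Periportal genes had 1 of 29 higher and none lower, with a median of -0.11.

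Genes of the p53 response had 7 of 33 higher and 4 lower (median 0.03). Phlda3, an inhibitor of Akt, read -3.13 (natural aging), 1.96 (aging diabetic), 1.95 (metformin) and 0.97 (APS plus metformin) and was 17.2-fold higher, Eda2r, an ectodysplasin receptor, was at least 16.9-fold higher, and Zmat3, an RNA-binding protein, was higher by 2.43. Gadd45a, a stress sensor, differed by -2.11, and Cdkn1a, which encodes the cell cycle inhibitor p21, was short of 2-fold (-0.35; other probe 0.70). Among genes of no list that ranked highest were Ren2, Tuba8, Defb1 and Wnt11. Ren2, a second renin gene that only some laboratory strains carry, was 27.5-fold higher. It read -2.40 (natural aging), 1.23 (aging diabetic), 1.51 (metformin) and 2.38 (APS plus metformin). Whether the groups share a strain is not given, and the part of strain in this difference was not tested. The tubulin Tuba8 was 23.2-fold and the defensin Defb1 16.1-fold higher. Wnt11 differed by 3.97 on its brighter probe and -0.17 on the other (1.90 over both).

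Of the circadian clock list, 5 of 34 were lower and 1 higher (median -0.10). The clock repressor Per2 differed by -1.98, with its other probe at -0.23 (-1.11 over both), and Ciart, another repressor, by 1.79. The AMPK subunit gene Prkaa1 (0.34), the deacetylase Sirt1 (-0.16) and the leptin receptor Lepr (0.31; other probe 1.26) were short of 2-fold on their main probes. Interferon-stimulated genes had 5 of 47 lower and 1 higher (median -0.33). Stellate cell and matrix genes had 4 of 41 lower and 1 higher (median -0.16), among them the collagens Col1a1 (-1.36) and Col3a1 (-1.31). Over all genes 6.57% were lower and 6.22% higher, so both lists lay near those shares.

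Housekeeping groups were near the middle of the range: 72 cytosolic ribosomal protein genes (median -0.18) and 73 oxidative phosphorylation subunits (median -0.13) had no member past 2-fold. Under quantile normalization these medians were -0.01 and 0.02. Urea cycle and amino acid catabolism genes had 1 of 64 higher and 2 lower (median 0.05).

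**Figure D5:**
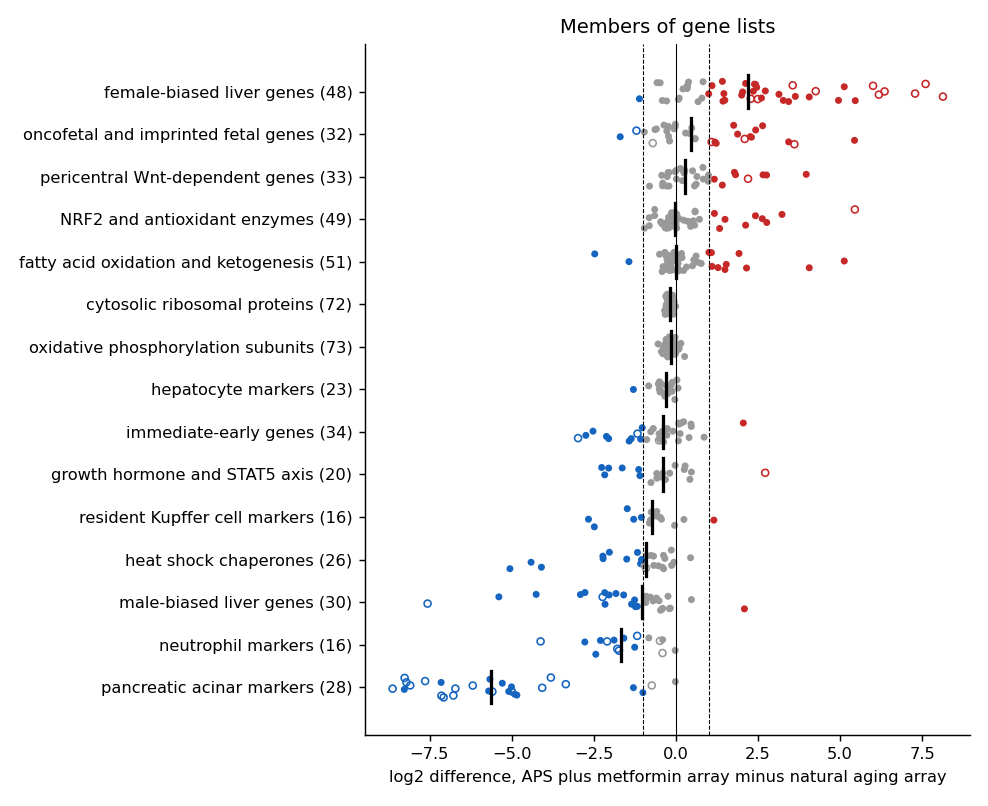
Difference (APS plus metformin minus natural aging, log2) of each member of 15 gene lists. Red points are at least 2-fold higher, blue at least 2-fold lower and grey short of 2-fold, open points are bounds, black bars are medians and brackets give the number compared. The acinar median is -5.62 and the female-biased median 2.20.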

How the data were processed

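Liver RNA of 4 groups was hybridized to 4 Agilent 1-colour arrays; per the file headers they share 1 slide, 1 scan and 1 channel (Cy5). The deposited intensity files hold spot signals from Agilent Feature Extraction, with background subtraction and detrending per array; the headers give version 11.5.1.1 and the submitters' processing notes 10.7. The flags of outlier and well above background spots are that software's. The authors' deposited series table holds log2 values from GeneSpring, per the labels' protocols, with a normalization that is not given in the sources used here and medians of 7.84 in every column. They were used as an alternative.

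The log2 processed signal less each array's 75th percentile was computed with Python 3.11.15, numpy 2.4.6 and pandas 2.3.3. Outlier spots were left out and repeated spots of a probe averaged. Transcript accessions, without version, were matched to RefSeq symbols: 33767 of 56605 probes matched 23462 symbols. The probe with the highest mean level over both arrays stood for a gene. Where 1 array was not well above background, the difference was bounded by the dim probe's own signal or by the dimmest detected signal of that array, whichever was higher (-4.52 log2 on natural aging, -4.84 on APS plus metformin); 310 genes whose bound fell on the wrong side have no direction. With 1 array a group no test was run, and the number of arrays limits the precision. Named genes are the 15 largest differences each way measured above background on each array, the 5 largest bounds each way, up to 6 members past 2-fold of each of 58 lists (2 where none was), and 27 fixed genes; lists with at least 3 members and 1 in 4 past 2-fold are described more closely. The comparison, the lists and the rule were chosen with earlier results of these data known. The procedure was tested on simulated data for this comparison: of 100 genes changed by 1.5 log2 it recovered 99, of 100 changed by 3.0 it recovered 95, and it called 65 unchanged genes among 14472. The simulated array was the natural aging array plus noise of the spot error alone, and the changed genes were well above background on both arrays. It held no spread between animals or arrays, so these counts give no rate of false calls for the real comparison. The 11 alternatives include quantile normalization and cyclic loess, and normexp (limma 3.58.1, R 4.3.3, offset 50), which used the median spot signal in place of the mean spot signal first planned. Promoter sequences come from a RefSeq table (GRCm38.p6). Figures were drawn with matplotlib 3.10.9. Some genes that the rule names are left out of the text.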

Additional observations from a re-analysis of the deposited data

How the results depend on the processing

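Under 11 alternatives the count of genes at least 2-fold higher ran from 701 (normexp background correction) to 1119 (75th percentile over probes detected on all arrays), except 1882 with no detection filter and no bounds, against 965; that alternative also compared genes dim on both arrays, 22843 in all. The count of lower genes ran from 787 to 1511, against 1018. Higher genes made up 44.4% to 55.5% of the counted genes, against 48.7%. The median of all genes moved by at most 0.07 log2 under any scaling, and by -0.12 with no detection filter. Of 232 named genes past 2-fold, 199 stayed past it the same way in every alternative that measured them and 33 did not in at least 1. The AMPK subunit gene Prkaa2 turned, from at least 4.01-fold lower to 0.23 log2 with outlier spots kept, and the cause was not tested. The median of the female-biased list ran from 1.45 to 2.27, of the male-biased list from -1.23 to -0.87, of the heat shock list from -0.95 to -0.79 and of the acinar list from -5.70 to -5.05. The acinar list had 11 members lower where both arrays had to be well above background, since 16 of its differences are bounds. No paired analysis was possible because each group holds 1 array and the result comes from no test. Differences of dim genes are limited by the signal over background, and the spread between animals is not measured.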

Other observations

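Bile duct markers had 3 of 14 members lower and none higher (median -0.28). The keratin Krt19 differed by -2.43, the adhesion molecule Epcam by -1.54 and the mucin Muc1 by -1.47. Secreted liver factors had 4 of 30 lower and 2 higher (median -0.28). Besides Fgf21, the inhibin beta chains Inhbe (-1.91) and Inhbc (-1.57) and the peptide hormone precursor Enho (-1.42) were lower, and the protease inhibitor Serpinb1a (2.71) was higher.

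Apobec1, which edits apolipoprotein B mRNA, differed by -2.11, with other probes at -3.44 and -2.17, and the glycogen-targeting phosphatase subunit Ppp1r3c by 2.07. Toll-like receptor genes had 5 of 37 lower and 1 higher (median -0.40), with Tlr2 (-1.46), Tlr1 (-1.45) and Tlr7 (-1.40) among the lower. Serpina4-ps1, a pseudogene of the serpin cluster, read 3.34 on the natural aging array and -2.67, -3.13 and -2.16 on the aging diabetic, metformin and APS plus metformin arrays. Of the probes that matched no RefSeq symbol, 10677 were compared; 713 were higher and 688 lower by 2-fold or more.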
